A study of Caenorhabditis elegans with 10 samples.

Results

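The comparison described here sets *sams-1(ww51)* animals against the strain they were made from, using 4 of the 10 RNA-seq libraries of the series, 2 replicates for each strain. The parent carries the transgene *wwIs24[Pacdh-1::GFP;unc-119(+)]*, in which the *acdh-1* promoter drives green fluorescent protein, together with *nhr-10(tm4695)*, a deletion in a nuclear hormone receptor gene. The *sams-1(ww51)* strain carries both of these and, in addition, the ww51 allele, so the *nhr-10* deletion is common to both sides of the comparison. The other 6 libraries come from *mthf-1(ww50)*, *metr-1(ww52)* and *mtrr-1(ww56)* animals on the same background and were used to estimate the spread between replicates. The ww51 allele came out of a chemical mutagenesis screen for animals that switch on *Pacdh-1::GFP*, and it is represented by 1 allele in 1 strain. All animals were labelled as L4, the last larval stage, grown for 48 hours on *E. coli* OP50 with 20 nM vitamin B12 after an 18 hour arrest as newly hatched larvae, and each library was made from total RNA of at least 200 whole animals. The methods of the study instead describe the animals as late L4 or early young adult. The strains were maintained with 0.64 nM vitamin B12. Abundance is given in TPM (transcripts per 1000000 in a library, corrected for transcript length), and the comparison covered the 14282 of 46903 listed genes whose average over the 4 libraries reached 1 TPM.

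SAMS-1 is a synthetase that makes S-adenosylmethionine (SAM) from methionine and ATP. SAM is the methyl donor for phosphatidylcholine, histones and many other acceptors. Once the methyl group is given away, the remainder is cleaved to homocysteine by AHCY-1, and methionine synthase, METR-1, turns homocysteine back into methionine with vitamin B12 as cofactor. MTRR-1 keeps that cofactor active, and the folate enzymes MEL-32 and MTHF-1 provide the methyl group. In *C. elegans* much of the membrane lipid phosphatidylcholine is made by methylation with SAM, through PMT-1 and PMT-2. Vitamin B12 is also needed for the canonical breakdown of propionate, and when it is short the propionate shunt, which starts with ACDH-1, takes over.

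TPM are shares of a fixed total per library, and the depth behind a single value is unknown. Between 13752 and 14563 genes reached 1 TPM in a library, and log2(TPM + 1) correlated between replicates at 0.962 in the parent and 0.936 in *sams-1(ww51)* across all genes tested, which are not independent of each other. The transcript of *sams-1* was not lower in the mutant and that of *nhr-10* was not absent from either strain, so neither level checks the strain labels. The labels do not say whether replicates were separate cultures grown on separate days, and the p-values measure only the spread between these libraries. The 10 markers of body wall muscle had a median log2 fold change of 0.04, with values from −0.17 to 0.64. In 1 of them both mutant libraries lay above both parent libraries with a fold over 1.5, beside 12.8% of all genes. The 9 tested intestinal markers had a median of −0.05, the 11 neuronal ones 0.27 and the 7 pharyngeal ones −0.13, and limma called none of these 37 genes. At an unadjusted p under 0.05 without the replicate term, 8 of them were higher and 3 lower, beside 2193 and 424 of all 14282 genes. Of the 8, 5 were neuronal, and all 3 lower ones were pharyngeal. Of the 7 pharyngeal genes, 3 were apart and lower with a fold over 1.5, beside 5.47% of all genes. The pharyngeal median was 0.21 between the libraries numbered 1 and −1.0 between those numbered 2. In whole animals, fewer cells of a type and less RNA per cell cannot be told apart.

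A gene was called when its adjusted p from limma was under 0.01 and its fold change over 1.5. Fold changes are differences of the mean log2(TPM + 1), a scale on which changes of genes near 0 TPM appear smaller than they are. By this rule 13 genes were higher (0.091% of those tested) and 4 lower (0.028%) in *sams-1(ww51)* than in the parent, 0.119% together. Of the higher genes, *clc-24*, *lipl-3*, C49F5.12, R02D5.12 and R02D5.20 passed the 1 TPM filter through the mutant libraries alone. Of the lower ones, F55C12.15 and 2RSSE.7 passed it through the parent libraries alone. The direction of these genes was fixed by the filter. R02D5.12 and R02D5.20 share one place and the same values. At an adjusted p under 0.05 there were 62 higher (0.434%) and 7 lower (0.049%). Same-numbered libraries shared part of their deviation from the strain means in all 5 strains. With the replicate number as a term in the fit, 366 genes were higher (2.56%) and 35 lower (0.245%), 2.81% together, among them all 17 called without it. Both counts leaned on single libraries, those of other strains included. Without the term, leaving out either *mthf-1(ww50)* library left 3 higher and 0 lower, either *metr-1(ww52)* library 4 and 0, an *mtrr-1(ww56)* library 6 or 7 and 0, a parent library 5 and 16 or 6 and 20, and a *sams-1(ww51)* library 25 and 1 or 27 and 1. With the term, the counts were 2 and 0 without either *mthf-1(ww50)* library, 3 and 2 without either *metr-1(ww52)* library, and 343 and 53 or 357 and 53 without an *mtrr-1(ww56)* library. Leaving out parent replicate 1 gave 3 and 6, parent replicate 2 gave 20 and 24, *sams-1(ww51)* replicate 1 gave 123 and 13, and *sams-1(ww51)* replicate 2 gave 21 and 4. A fit on the 4 libraries alone called no gene with or without the term, and 2140 genes had an unadjusted p under 0.05 there. Without the term, the fit on all 10 libraries gave 2193 genes higher and 424 lower at an unadjusted p under 0.05. With the term there were 2812 and 1349. With 2 libraries against 2, an exact permutation test cannot go below p = 0.333 for any single gene. As a description free of the model, 1829 genes (12.8%) had both *sams-1(ww51)* libraries above both parent libraries with a fold over 1.5, and 781 genes (5.47%) had both below.

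**Figure D1:**
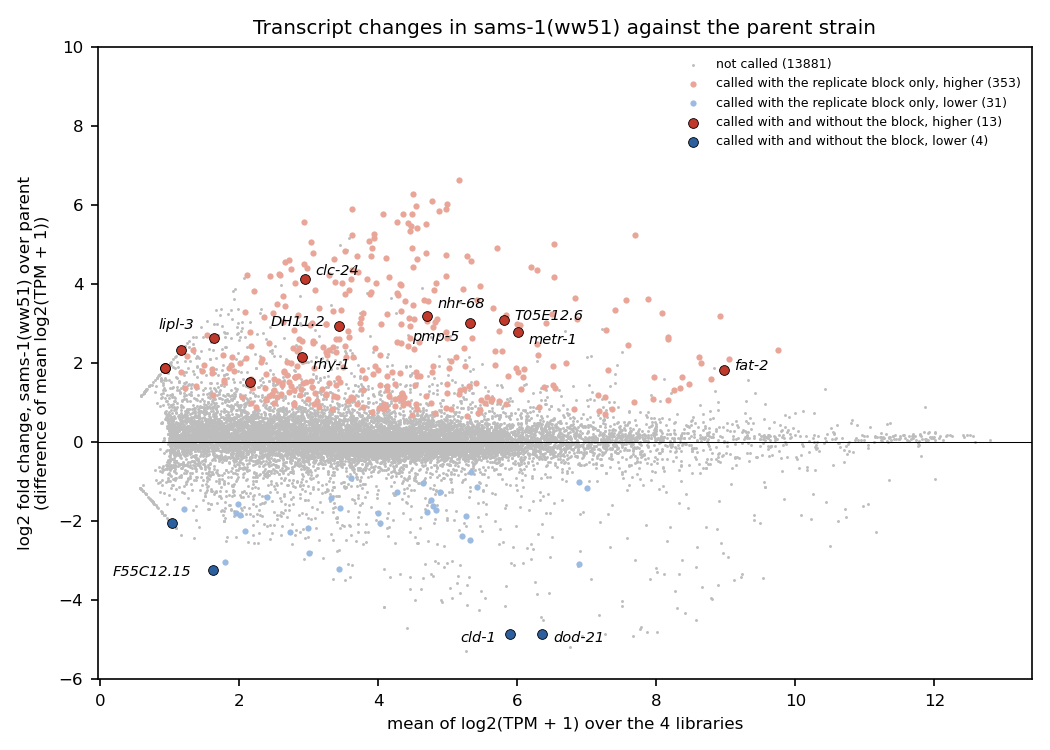
Log2 fold change of each of 14282 genes (*sams-1(ww51)* over parent, vertical axis) against its mean log2(TPM + 1) over the 4 libraries (horizontal axis). Large dark points are the 13 higher and 4 lower genes called with and without the replicate term, and pale points are genes called with it alone. Most pale points lie above 0, and the largest rises reach 6.63.

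Most of the genes that moved rose. Of the 366 genes higher with the replicate term, 199 had a fold change over 4 and 65 over 16, with a median log2 fold change of 2.16, against −1.79 for the 35 lower ones. The risers were also uneven between replicates. In the mutant, 338 of the 366 (92.3%) were higher in replicate 1 than in replicate 2, compared with 50.2% of all genes tested, and they were higher in parent replicate 1 too, by a median of 0.46 on the log2 scale.

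The smallest adjusted p was that of *clc-24* and of *nhr-68*, a receptor gene described with the vitamin B12 genes. *clc-24* (chromosome III, 1010037 to 1011400 on the plus strand, WBcel235) belongs to the claudin-like family. The parent libraries held 0.92 and 0.78 TPM and the *sams-1(ww51)* libraries 32.70 and 29.73 TPM. *clc-24* passed the filter through the mutant libraries alone, so its adjusted p is a description only. The mutant libraries lay far above both parent libraries and close to each other, and the log2 fold change was 4.12 ± 0.17 (SE, adjusted p = 0.000471). For T05E12.6 the parent held 19.97 and 16.63 TPM and the mutant 181.82 and 147.71 TPM, a log2 fold change of 3.10 ± 0.16 (adjusted p = 0.000895). DH11.2 rose from 2.85 and 2.98 TPM to 33.69 and 24.93 TPM, a log2 fold change of 2.94 ± 0.21 (adjusted p = 0.00469). In each of these genes every mutant library was several times above every parent library.

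Among the smaller transcripts, *rhy-1*, a membrane acyltransferase that restrains the hypoxia factor HIF-1, rose from 3.13 and 2.02 TPM to 14.07 and 15.48 TPM (log2 fold change 2.16, adjusted p = 0.0062). The pseudogene Y119D3B.9 rose from 1.48 and 1.81 to 6.58 and 6.6 TPM (log2 fold change 1.52, adjusted p = 0.00898). The pseudogene C49F5.12 was listed at 0 in both parent libraries and at 4.2 and 3.83 TPM in the mutant, and all 284 bases of its exons overlap C49F5.13 on the opposite strand. A pair of noncoding RNAs annotated on opposite strands of one place, R02D5.12 and R02D5.20 (chromosome V, 14507387 to 14507533), were both listed at 0 in the parent and both at 2.59 and 2.74 TPM in the mutant. These 3 genes passed the filter through the mutant libraries alone, where they had to be the higher. The same holds for other genes whose parent libraries were both below 1 TPM, *clc-24*, *lipl-3*, *lipl-6* and *acdh-1* among them. Their p-values are descriptions only. No source used here says that counting used strand, so reads from these overlapping pairs cannot be told apart.

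The genes of the Met/SAM cycle were higher together. All 6 had both mutant libraries above both parent libraries with a fold over 1.5, beside 12.8% of all genes. limma called 1 of the 6 without the replicate term and 5 of the 6 with it, beside 0.091% and 2.56% of all genes called higher. The median log2 fold change was 2.38 against 0.04 over all genes. *metr-1*, which encodes methionine synthase, stood at 24.46 and 22.84 TPM in the parent and 219.47 and 130.62 TPM in the mutant, a log2 fold change of 2.79 ± 0.26 (adjusted p = 0.00968). *mthf-1*, whose enzyme makes the methyl form of folate, went from 90.40 and 73.05 TPM to 572.52 and 358.71 TPM (log2 fold change 2.46, adjusted p = 0.0299, with the replicate term 0.00156). For both genes the mutant libraries lay apart from the parent libraries by more than they differed from each other.

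*mtrr-1*, the gene for the methionine synthase reductase, was at 19.88 and 24.60 TPM in the parent and 148.63 and 85.21 TPM in the mutant (log2 fold change 2.30, adjusted p = 0.0230, with the replicate term 0.00478). The mutated gene also belonged to this group. *sams-1* transcripts stood at 80.15 and 33.72 TPM in the parent and 750.72 and 388.46 TPM in *sams-1(ww51)*, a log2 fold change of 3.35 ± 0.52 (adjusted p = 0.0623, with the replicate term 0.0040). *mel-32*, the serine hydroxymethyltransferase, went from 221.95 and 179.95 to 638.30 and 424.97 TPM (log2 fold change 1.38, with the replicate term adjusted p = 0.00393). *ahcy-1* was the one member outside the calls, at 755.56 and 788.02 TPM in the parent and 1483.20 and 978.63 TPM in the mutant (log2 fold change 0.64 ± 0.20, adjusted p = 0.158 and with the replicate term 0.0553). In every member, mutant replicate 1 was the higher of the 2 mutant libraries.

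The other synthetase genes moved much less than *sams-1*. *sams-3* stood at 80.89 and 78.63 TPM in the parent and 114.34 and 104.23 TPM in the mutant, and *sams-4* at 68.81 and 62.26 and at 93.28 and 109.34 TPM. Their log2 fold changes were 0.45 ± 0.11 and 0.62 ± 0.17 (adjusted p = 0.106 and 0.136). *sams-5* overlapped between the strains, with 19.36 and 16.52 TPM in the parent and 28.79 and 15.95 TPM in the mutant (log2 fold change 0.25 ± 0.31). limma called none of the 3, and 2 of them were higher at an unadjusted p under 0.05 without the replicate term, beside 2193 of all 14282 genes. Together the 3 genes held 169 and 157 TPM in the parent and 236 and 230 TPM in *sams-1(ww51)*, while the sums over the 6 cycle genes were 1192 and 1122 TPM in the parent and 3813 and 2367 TPM in the mutant. These synthetase genes resemble each other, and how reads common to them were shared out by the estimation was not examined.

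**Figure D2:**
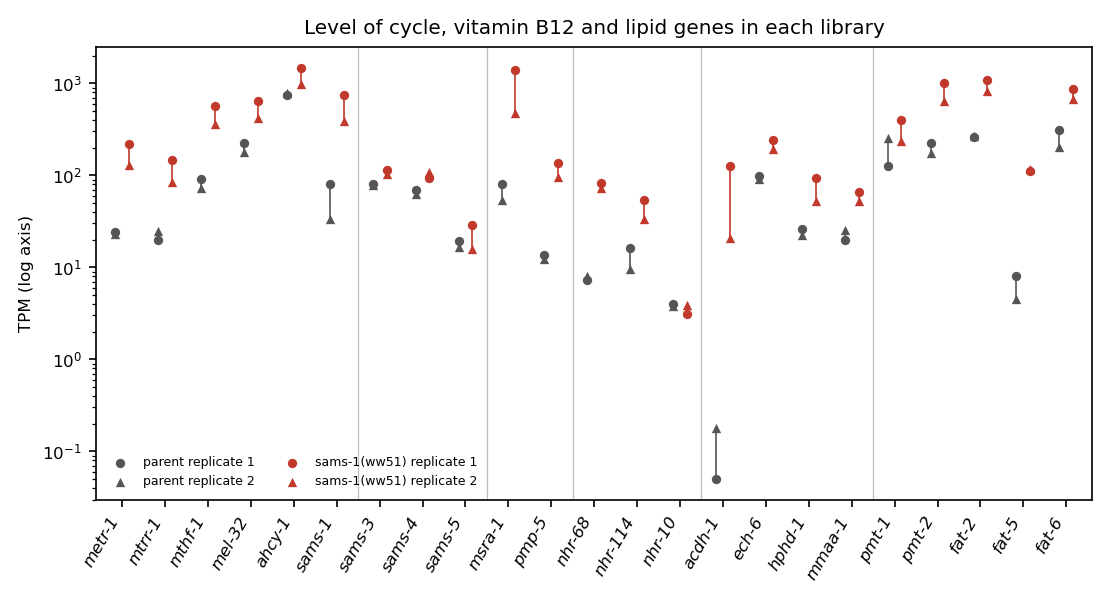
TPM on a log axis for 23 genes of the Met/SAM cycle, SAM synthetases, vitamin B12 response, propionate breakdown and lipid synthesis. Grey marks are the parent and red marks *sams-1(ww51)*, circles replicate 1 and triangles replicate 2, with a line joining the 2 libraries of a strain. The red marks of *metr-1*, *mthf-1*, *pmp-5*, *nhr-68* and *fat-5* stand clear of the grey ones, and those of *nhr-10* and *sams-5* overlap them.

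Around the cycle, 2 of 7 genes for methionine and B12 supply and for sulfur exit were called higher with the replicate term and 1 of them without it, beside 2.56% and 0.091% of all genes. *pmp-5*, an ABC transporter gene, rose from 13.74 and 12.40 TPM to 134.79 and 94.79 TPM (log2 fold change 3.02 ± 0.17, adjusted p = 0.00135). *msra-1*, whose enzyme reduces oxidised methionine back to methionine, had the highest level of this group in the mutant, at 1413.14 and 476.11 TPM against 81.26 and 53.86 TPM in the parent (log2 fold change 3.61, adjusted p = 0.0432, with the replicate term 0.00332). The sulfur exit genes were not called. *cbs-1*, which commits homocysteine to cystathionine, was at 25.81 and 16.06 TPM in the parent and 6.62 and 7.53 TPM in the mutant. Both mutant libraries were below both parent libraries, but its log2 fold change of −1.41 ± 0.24 did not pass the threshold (adjusted p = 0.0721, with the replicate term 0.0195). The remaining members, *cbs-2*, *cth-1*, *cth-2* and the B12 exporter gene *mrp-5*, had log2 fold changes from 0.02 to 0.08 with overlapping libraries.

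Of the 3 nuclear hormone receptor genes tied to vitamin B12, *nhr-68* and *nhr-114* were higher. *nhr-68*, which acts with *nhr-10* in the propionate response, rose from 7.2 and 8.09 TPM to 82.49 and 72.92 TPM. The mutant libraries differed by little, and the log2 fold change of 3.19 ± 0.14 had the same adjusted p as that of *clc-24* (0.000471). *nhr-114*, the receptor gene linked to the Met/SAM cycle and needed for germline integrity on low-B12 bacteria, stood at 16.34 and 9.67 TPM in the parent and 53.99 and 33.60 TPM in the mutant (log2 fold change 1.68, adjusted p = 0.0721, with the replicate term 0.00802). Transcripts of the deleted gene *nhr-10* were listed at 3.95 and 3.85 TPM and at 3.13 and 3.91 TPM, with no call (log2 fold change −0.12 ± 0.22).

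The propionate shunt was called higher with the replicate term in 3 of 5 genes, beside 2.56% of all genes, and without it in none. Without the term 4 of the 5 were higher at an unadjusted p under 0.05, beside 2193 of all 14282 genes. *acdh-1*, the acyl-CoA dehydrogenase that opens the shunt, was nearly silent in the parent, at 0.05 and 0.18 TPM, and reached 126.45 and 20.94 TPM in *sams-1(ww51)*. The mutant replicates differed about as much as is seen in the cuticle genes described further on (log2 fold change 5.57 ± 0.70, adjusted p = 0.0324, with the replicate term 0.00539). Because the allele was selected for activity of the *acdh-1* promoter, this rise is not independent of how the strain was found. *acdh-1* also passed the filter through the mutant libraries alone. *ech-6*, the enoyl-CoA hydratase, went from 97.94 and 91.08 TPM to 242.23 and 191.32 TPM (log2 fold change 1.18, with the replicate term adjusted p = 0.00332). *hphd-1*, which oxidises 3-hydroxypropionate, went from 25.99 and 22.75 TPM to 94.24 and 51.98 TPM (log2 fold change 1.49, with the replicate term adjusted p = 0.00502). *hach-1*, the hydrolase between them, had a log2 fold change of 0.11 ± 0.11, and *alh-8*, the last enzyme, one of 0.49 ± 0.13, and neither was called.

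In the canonical B12-dependent route, 4 of 5 genes (*pcca-1*, *pccb-1*, *mce-1* and *mmcm-1*) had log2 fold changes between −0.11 and 0.06. *mmaa-1*, the homolog of a human gene that helps load the cofactor onto the mutase, was the exception, at 19.94 and 25.60 TPM in the parent and 66.59 and 52.82 TPM in the mutant (log2 fold change 1.35 ± 0.16, adjusted p = 0.0293, with the replicate term 0.00741).

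Phosphatidylcholine synthesis, the main use of SAM in worm membranes, had 1 called gene among 13 tested. It was called higher with the replicate term and not without it, beside 2.56% and 0.091% of all genes. At an unadjusted p under 0.05 without the term 5 were higher and 0 lower, beside 2193 and 424 of all 14282 genes. With a fold over 1.5, 2 were apart and higher and 1 apart and lower, beside 12.8% and 5.47% of all genes. *pmt-2*, which adds the last methyl groups to phosphoethanolamine, stood at 225.45 and 175.65 TPM in the parent and 1002.06 and 641.44 TPM in the mutant (log2 fold change 2.00 ± 0.30, adjusted p = 0.0523, with the replicate term 0.00292). *pmt-1*, which adds the first, overlapped between the strains, with 126.35 and 256.15 TPM in the parent and 396.97 and 239.12 TPM in the mutant (log2 fold change 0.77 ± 0.39, adjusted p = 0.341). The genes of the choline route were not called. The choline/ethanolamine phosphotransferase gene *cept-1* had a log2 fold change of 0.85 ± 0.30, and the choline kinase gene *ckb-2* one of −0.81 ± 0.47 with 38.62 and 13.37 TPM in the mutant against 39.12 and 42.72 TPM in the parent. The median of the list was 0.32.

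Of 15 tested fatty acid genes, 9 had both mutant libraries above both parent libraries with a fold over 1.5 and none had both below, beside 12.8% and 5.47% of all genes, and the median log2 fold change was 1.05. limma called 1 without the replicate term (0.091% of all genes) and 3 with it (2.56%). *fat-2*, the delta-12 desaturase that makes linoleic acid, was the most abundant gene among the 17 called without the replicate term, at 262.38 and 269.52 TPM in the parent and 1092.62 and 821.80 TPM in the mutant (log2 fold change 1.83 ± 0.14, adjusted p = 0.0062). *fat-5*, the desaturase that acts on palmitic acid, rose from 8.08 and 4.52 TPM to 112.15 and 116.79 TPM, nearly the same in both mutant libraries (log2 fold change 4.03 ± 0.39, adjusted p = 0.0118, with the replicate term 0.00446). *fat-6*, a stearoyl-CoA desaturase gene, went from 314.78 and 203.17 TPM to 872.44 and 670.10 TPM (log2 fold change 1.59, adjusted p = 0.0478, with the replicate term 0.00464). Its near relative *fat-7* was at 46.81 and 42.73 TPM and at 67.20 and 52.69 TPM (log2 fold change 0.40 ± 0.28, adjusted p = 0.483). The members that were apart but not called were *fat-1*, *fat-3*, *fat-4*, the fatty acid synthase gene *fasn-1*, the acetyl-CoA carboxylase gene *pod-2* and the elongase gene *elo-2*, with log2 fold changes from 0.82 to 1.39. *sbp-1* and *mdt-15*, which encode regulators of this programme, had log2 fold changes of −0.12 and −0.13.

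Among 11 tested lipase and lipid-use genes, the lysosomal lipase genes *lipl-3* and *lipl-1* were called higher with the replicate term, beside 2.56% of all genes. *lipl-3* was barely detected in the parent, at 0.23 and 0.28 TPM, and stood at 6.58 and 7.05 TPM in the mutant (log2 fold change 2.64 ± 0.18, adjusted p = 0.00365). *lipl-1* went from 2.16 and 2.90 TPM to 13.04 and 27.11 TPM, here with replicate 2 the higher (log2 fold change 2.50, adjusted p = 0.0472, with the replicate term 0.00666). *lipl-6* went from 0.72 and 0.33 TPM to 15.76 and 5.08 TPM and just missed the threshold with the replicate term (log2 fold change 2.74, adjusted p = 0.0102). *lipl-3* and *lipl-6* passed the filter through the mutant libraries alone. *lipl-5* was the most abundant lipase gene in both strains, at 389.16 and 342.12 TPM and at 458.01 and 670.38 TPM, and was not called (log2 fold change 0.60 ± 0.18).

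On the log2(TPM + 1) scale, genes of the cuticle and its matrix reached the largest rises, up to 6.63. As a plain ratio of mean TPM, *acdh-1*, near 0 in the parent, was higher than any of those named here (641, against 165 for *lpr-3*). *C. elegans* replaces its collagen cuticle at each molt, and the genes for the furrow collagens, the temporary apical matrix and the enzymes that shed the old cuticle are switched on in turn during each cycle. The 6 furrow collagens, which form the circumferential furrows, were between 0.93 and 4.42 TPM in the parent libraries, between 253 and 508 TPM in mutant replicate 1 and between 59.23 and 127.82 TPM in mutant replicate 2. For *dpy-3* the 4 values were 2.45 and 0.93 TPM in the parent and 413.69 and 95.09 TPM in the mutant, a log2 fold change of 6.27 ± 1.25. Every member (*dpy-2*, *dpy-3*, *dpy-7*, *dpy-8*, *dpy-9* and *dpy-10*) was called with the replicate term, beside 2.56% of all genes, with adjusted p from 0.00332 to 0.00493. None was called without it, where all 6 were higher at an unadjusted p under 0.05, beside 2193 of all 14282 genes. The median of the 6 was 5.77 over both replicates, 6.5 between the libraries numbered 1 and 5.01 between those numbered 2. T14B4.19, which rose alongside them (0.93 and 0.33 TPM to 196.27 and 45.31 TPM), overlaps *dpy-10* on the same strand over 780 of its 823 bases and cannot be read as a separate signal.

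Of 32 tested genes of the temporary matrix and of molting, 15 were called higher with the replicate term and none lower, beside 2.56% and 0.245% of all genes. Both mutant libraries lay above both parent libraries with a fold over 1.5 for 23 of them and below for 2, beside 12.8% and 5.47% of all genes, and the median log2 fold change was 3.11. These counts include genes that passed the filter through the mutant libraries alone and so had to be higher. They are *zmp-2*, among those called, and *let-653* and *fbn-1*, which were not called. The lipocalin-related gene *lpr-3*, needed to shape the outer matrix, had the largest log2 fold change of all genes tested on the log2(TPM + 1) scale, with 3.65 and 1.79 TPM in the parent and 726.97 and 172.87 TPM in the mutant (log2 fold change 6.63 ± 1.15, adjusted p = 0.0721, with the replicate term 0.00332). Its relatives *lpr-4* and *lpr-5* had log2 fold changes of 6.11 and 5.98. *noah-1* and *noah-2*, zona pellucida proteins that tie the epidermis to the cuticle, had 5.85 and 5.91, and the leucine-rich repeat gene *sym-1* had 5.77.

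The level reached was highest for *dao-2*, at 2163.53 and 756.14 TPM in the mutant against 43.18 and 24.85 TPM in the parent (log2 fold change 5.24). The protease inhibitor-like gene *mlt-11* had a log2 fold change of 5.56, and the hedgehog-related genes *wrt-10*, *wrt-2* and *qua-1* had 5.53, 5.42 and 3.88. Other members of the list had small or negative values. The astacin protease genes *nas-7* and *nas-36* had log2 fold changes of −1.89 and −1.12 with both mutant libraries below both parent libraries. *nhr-23*, the receptor that drives molting, stood at 24.50 and 25.40 TPM in the parent and 54.91 and 28.91 TPM in the mutant (log2 fold change 0.66 ± 0.29, adjusted p = 0.286).

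Of 13 other named cuticle collagens, 7 were called higher with the replicate term, beside 2.56% of all genes. Of the strut collagens, *bli-1* and *bli-2* were among them and *bli-6* was not. *bli-1* went from 18.96 and 12.35 TPM to 716.08 and 381.13 TPM (log2 fold change 5.0, with the replicate term adjusted p = 0.00332), and *bli-2* from 126.81 and 58.34 TPM to 1028.16 and 680.46 TPM (log2 fold change 3.27, with the replicate term adjusted p = 0.0034). *bli-6* overlapped between the strains, with 2363.05 and 1632.61 TPM in the parent and 1044.81 and 1859.21 TPM in the mutant (log2 fold change −0.49 ± 0.34, adjusted p = 0.485). The other called genes were *lon-3*, *rol-8*, *sqt-1*, *sqt-2* and *sqt-3*, with log2 fold changes from 2.10 to 2.82 and mutant replicates closer to each other than in the furrow group. Abundant collagens *dpy-4*, *dpy-5* and *dpy-13* overlapped between the strains, with log2 fold changes from −0.04 to 0.15.

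**Figure D3:**
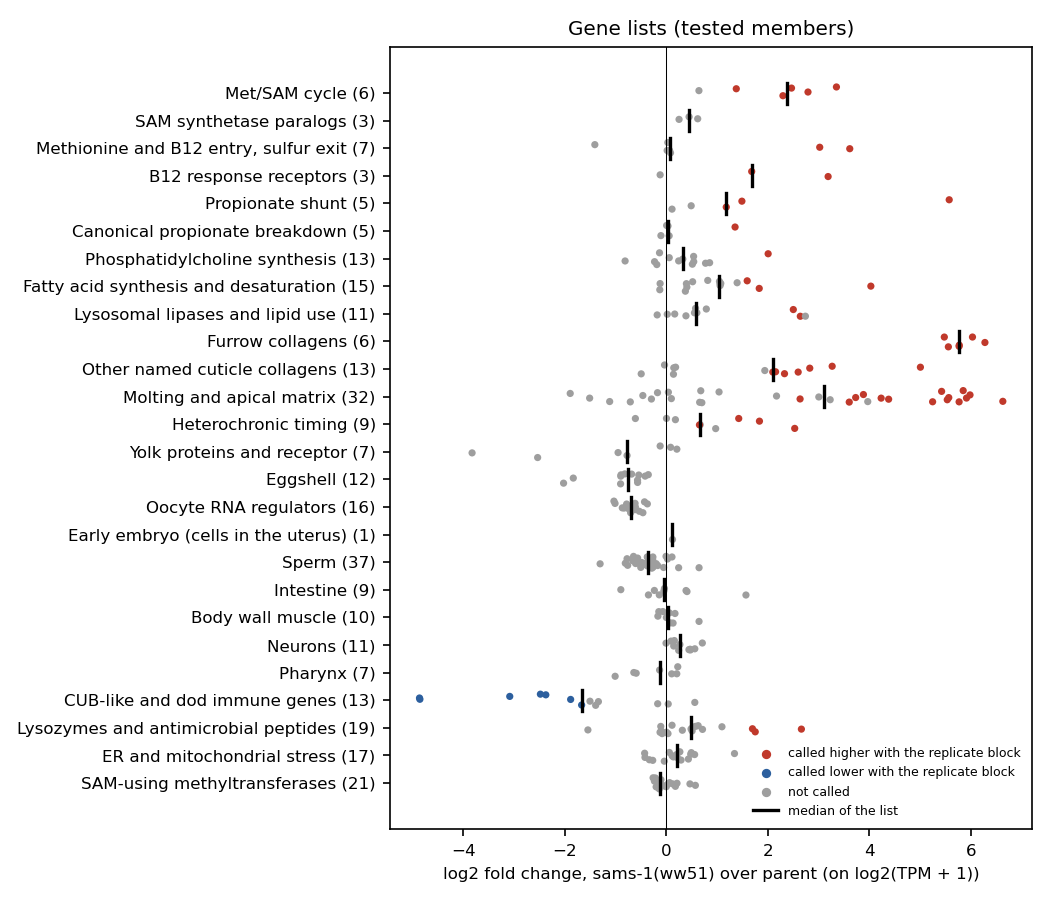
Log2 fold change (*sams-1(ww51)* over parent) of the tested members of 26 gene lists, 1 point per gene and the number tested in brackets. Red points were called higher and blue points lower with the replicate term, and the black bar is the median. Furrow collagens sit between 5.47 and 6.27, the CUB-like and *dod* immune genes reach −4.86, and eggshell and oocyte genes all lie below 0 without a call.

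The large *col-* family, chosen as a group after its values were seen, went mostly the other way. Of the *col-* genes tested, 64 (56.1%) had both mutant libraries below both parent libraries with a fold over 1.5 and 14 (12.3%) had both above, beside 5.47% and 12.8% of all genes. The family summed to 88479 and 88477 TPM in the parent and to 18190 and 52750 TPM in the mutant, so mutant replicate 1 held far less of it than replicate 2. The median log2 fold change was −1.75, with −2.98 between the libraries numbered 1 and −0.69 between those numbered 2. limma called 4 *col-* genes higher and none lower with the replicate term, beside 2.56% and 0.245% of all genes. The 4 are a share near that of all genes. At an unadjusted p under 0.05 in that fit, 59 were lower and 11 higher, beside 1349 and 2812 of all 14282 genes. *col-19*, an adult-specific collagen, stood at 370.51 and 1162.20 TPM in the parent and 1.0 and 159.73 TPM in the mutant (log2 fold change −5.20, adjusted p = 0.342, with the replicate term 0.0340). *col-119* was at 110.57 and 511.76 TPM and at 0.67 and 21.75 TPM (log2 fold change −5.28, with the replicate term adjusted p = 0.0194). Opposite to these, *col-98* went from 0.14 and 2.34 TPM to 130.71 and 27.79 TPM, and *col-176* from 1.21 and 1.17 TPM to 149.05 and 25.78 TPM, neither past the threshold. The 4 called genes included *col-128* (0.57 and 0.08 TPM to 64.04 and 13.43 TPM) and *col-110* (39.79 and 20.79 TPM to 265.02 and 219.13 TPM). Of these, *col-128* passed the filter through the mutant libraries alone, so it had to be higher.

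Genes that time the larval stages were measured as well. Of 9 heterochronic genes tested, 4 were called higher with the replicate term (2.56% of all genes) and 6 were apart and higher (12.8% of all genes). *mab-10*, a cofactor at the larval-to-adult switch, went from 7.92 and 6.30 TPM to 67.09 and 30.82 TPM (log2 fold change 2.53, with the replicate term adjusted p = 0.00583). Its partner, the zinc finger gene *lin-29*, went from 11.33 and 8.31 TPM to 39.43 and 19.49 TPM (log2 fold change 1.43, with the replicate term adjusted p = 0.00691). *lin-42*, the period homolog that cycles with the molts, went from 110.49 and 61.54 TPM to 339.21 and 259.42 TPM (log2 fold change 1.83, with the replicate term adjusted p = 0.00493).

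Markers of oogenesis pointed downward without passing the test. All 12 eggshell genes and all 16 oocyte RNA regulators had negative log2 fold changes, with medians of −0.75 and −0.70. limma called none of the 28 with or without the replicate term. At an unadjusted p under 0.05 none was lower without it and 21 were with it, beside 424 and 1349 of all 14282 genes. *perm-2*, a component of the permeability barrier of the eggshell, stood at 220.49 and 387.96 TPM in the parent and 32.39 and 155.12 TPM in the mutant (log2 fold change −2.02 ± 1.18, adjusted p = 0.401). *perm-4* had −1.83 ± 1.04. *pos-1*, an RNA-binding regulator of early embryos, was at 37.16 and 99.74 TPM and at 16.76 and 52.38 TPM (log2 fold change −1.01 ± 0.89, with the replicate term adjusted p = 0.0113). In both strains replicate 2 held more of these transcripts than replicate 1. Without parent replicate 2 the eggshell median was −0.13, and without *sams-1(ww51)* replicate 1 it was −0.13 too. The molting, adult collagen and oogenesis genes move with developmental age in this animal, and whether the 4 libraries differed in age, and what part that had in these values, was not tested.

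Yolk genes were split. *vit-3* was at 274.91 and 396.51 TPM in the parent and 6.97 and 67.53 TPM in the mutant (log2 fold change −3.82 ± 1.90), and *vit-4* at 90.70 and 192.63 TPM and at 8.52 and 54.62 TPM (log2 fold change −2.53 ± 2.28). *vit-2* overlapped widely, with 305.36 and 1436.64 TPM in the parent and 496.42 and 1179.60 TPM in the mutant. The yolk receptor gene *rme-2* had a log2 fold change of −0.77 ± 0.74. None of the 7 was called, and the median of −0.77 became 0.86 without parent replicate 2. Yolk genes are near copies of each other, so their separate values are uncertain. Markers of embryos were close to absent, with 1 of 10 genes reaching the 1 TPM filter and summed levels of 2.02 to 2.28 TPM in the 4 libraries, and the defining gene *pes-10* was listed at 0 in all 4.

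Sperm genes held 14015 and 16732 TPM in the parent and 9135 and 14180 TPM in the mutant, with a median log2 fold change of −0.37 over 37 genes, of which 7 were apart and lower and 1 apart and higher, beside 5.47% and 12.8% of all genes. *msp-63*, a major sperm protein gene, was the lowest, at 13.12 and 16.05 TPM and at 3.73 and 7.35 TPM (log2 fold change −1.30 ± 0.47, adjusted p = 0.204). The one apart and higher was *spe-44*, a regulator of early sperm development (log2 fold change 0.64 ± 0.33). limma called none of the 37 with or without the replicate term. Without it 1 was lower at an unadjusted p under 0.05, beside 424 of all 14282 genes.

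Among the lower genes, one immune group stood out by number. Of 13 tested CUB-like and *dod* genes, 2 were called lower without the replicate term and 7 with it, beside 0.028% and 0.245% of all genes. These genes respond to pathogens and to insulin signalling. In 10 of the 13, both mutant libraries lay below both parent libraries with a fold over 1.5, beside 5.47% of all genes. *dod-21* stood at 509.20 and 384.84 TPM in the parent and 16.87 and 12.06 TPM in the mutant (log2 fold change −4.86 ± 0.44, adjusted p = 0.00968). *cld-1* stood at 372.94 and 273.60 TPM and at 9.69 and 10.51 TPM (log2 fold change −4.85 ± 0.39, adjusted p = 0.0062). Both fell to a low level in each mutant library, and that of *cld-1* was almost the same in the mutant replicates. *dod-24* fell from 396.26 and 300.45 TPM to 54.95 and 28.81 TPM (log2 fold change −3.08, with the replicate term adjusted p = 0.0025). The other members called with the replicate term were *irg-5* (−2.48), C32H11.4 (−2.37), *dod-17* (−1.88) and *dod-22* (−1.67). *dod-19* and *cld-9* had log2 fold changes of 0.04 ± 0.18 and −0.17 ± 0.23. As a sum, the list held 2082 and 1604 TPM in the parent and 587 and 539 TPM in *sams-1(ww51)*.

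A stretch of 14 genes on chromosome IV, between 12912722 and 12944526 (WBcel235), holds 5 of these tested genes. The untested list member *irg-6* also lies in it, at 0.24 and 0.22 TPM in the parent and 0.06 and 0.19 TPM in the mutant. The stretch was taken as the annotated genes whose sequence names begin with C32H11, without piRNAs, and is called the cluster here. F55G11.2 and *dod-17*, also called lower with the replicate term, start past its edge, at 12967445 and 12976303. *cld-1* occupies 12935011 to 12936271 on the minus strand and *dod-21* follows at 12936738 to 12937988 on the plus strand. *dod-24*, C32H11.4 and C32H11.3 lie within the same stretch. All 5 had both mutant libraries below both parent libraries with a fold over 1.5, beside 5.47% of all genes. Of the 5, C32H11.3 was not called (log2 fold change −1.34, with the replicate term adjusted p = 0.0194). Genes between them overlapped between the strains. C32H11.8, which ends just before *cld-1*, was at 44.32 and 14.03 TPM in the parent and 22.85 and 33.45 TPM in the mutant (log2 fold change 0.14 ± 0.54), and C32H11.11, between *dod-21* and *dod-24*, was at 8.71 and 9.17 TPM and at 4.85 and 13.15 TPM (log2 fold change −0.13 ± 0.41). *srlf-4*, *srlf-5* and C32H11.7 had log2 fold changes from 0.14 to 0.45. Of the 10 tested genes of the cluster, 4 were called lower with the replicate term, beside 0.245% of all genes. Without the term only *cld-1* and *dod-21* were called, beside 0.028% of all genes. C32H11.3 aside, the 5 genes not called had overlapping libraries. Chromosome IV carried 37.1% of the 35 genes lower with the replicate term, the 4 of the cluster among them, and 17.6% of the genes tested. Chromosome X carried 22.7% of the 366 higher genes and 13.3% of those tested.

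**Figure D4:**
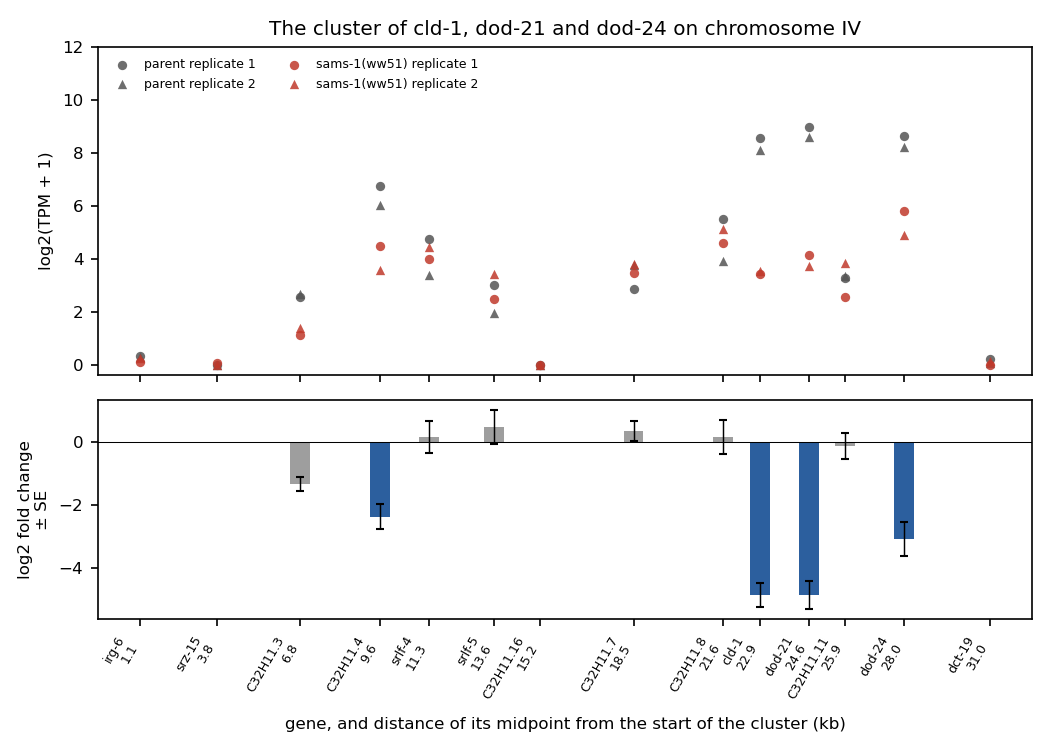
Levels (upper panel, log2(TPM + 1) in each of the 4 libraries) and log2 fold changes with standard errors (lower panel) of the genes along the 31.8 kb cluster, placed by the distance of each gene's midpoint from its start. Blue bars were called lower with the replicate term and grey bars were not called. *cld-1*, *dod-21* and *dod-24* fall from the top of the panel while *srlf-4*, *srlf-5*, C32H11.7, C32H11.8 and C32H11.11 between or beside them have overlapping marks.

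Outside the CUB-like and *dod* list, F55G11.2 fell from 39.02 and 26.39 TPM to 6.38 and 7.74 TPM (log2 fold change −2.04, adjusted p = 0.0299, with the replicate term 0.00423). The noncoding RNA F55C12.15 was at 6.85 and 10.35 TPM in the parent and listed at 0 in both mutant libraries (adjusted p = 0.00341). The noncoding RNA 2RSSE.7 was at 2.82 and 3.53 TPM and at 0 and 0.01 TPM (adjusted p = 0.00898), and its 192 bases lie inside 2RSSE.5 on the opposite strand. Both noncoding RNAs were among the genes called lower without the replicate term. They passed the filter through the parent libraries alone, where they had to be the higher, so their p-values are descriptions only. A further 4 genes were called only with the replicate term, and their parent libraries differed strongly. These were F48G7.8 (12.63 and 78.82 TPM to 0.11 and 10.22 TPM), *idpc-7* (9.6 and 42.27 TPM to 0 and 8.20 TPM), C26G2.2 (4.4 and 14.95 TPM to 0.23 and 2.05 TPM) and the ground-like gene *grl-30* (6.39 and 12.44 TPM to 0 and 0.47 TPM).

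Among 19 tested lysozymes and antimicrobial peptides, 3 lysozyme genes were called higher with the replicate term and none lower, beside 2.56% and 0.245% of all genes. *lys-4* rose from 88.86 and 145.93 TPM to 819.16 and 641.67 TPM (log2 fold change 2.66 ± 0.26, adjusted p = 0.0118, with the replicate term 0.00449). *lys-5* had a log2 fold change of 1.75 and *lys-6* one of 1.70. *nlp-34*, an epidermal antimicrobial peptide gene, was lower in both mutant libraries, with 84.87 and 408.57 TPM against 501.10 and 594.67 TPM in the parent, and was not called (log2 fold change −1.54 ± 0.76).

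Stress and methyltransferase genes gave no calls. Of 17 genes of the endoplasmic reticulum and mitochondrial stress responses, limma called none with or without the replicate term. Without it 2 were higher and 1 lower at an unadjusted p under 0.05, beside 2193 and 424 of all 14282 genes. The chaperone gene *hsp-4*, a standard readout of the endoplasmic reticulum response, was at 375.89 and 516.25 TPM and at 393.26 and 272.56 TPM (log2 fold change −0.43 ± 0.30). *pdi-2*, which encodes the prolyl hydroxylase subunit and disulfide isomerase used for collagen, had 883.65 and 838.74 TPM and 2871.96 and 1661.23 TPM (log2 fold change 1.34 ± 0.45, with the replicate term adjusted p = 0.0225). The 21 tested methyltransferase genes that use SAM spanned −0.26 to 0.57 with a median of −0.12. None was called, and none was higher or lower at an unadjusted p under 0.05 without the replicate term, beside 2193 and 424 of all 14282 genes. Of single markers of tissue, the intestinal protease gene *cpr-1* had a log2 fold change of 1.57 ± 0.36, the intestinal filament gene *ifb-2* −0.90 ± 0.47 and the pharyngeal myosin gene *myo-2* −1.01 ± 0.28, and none was called.

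To ask where *sams-1(ww51)* differed from the other mutants, it was compared with the mean of *mthf-1(ww50)*, *metr-1(ww52)* and *mtrr-1(ww56)*, a contrast from which the parent libraries drop out. limma called 0 of 14282 genes at an adjusted p under 0.01 with or without the replicate term, 1125 genes had an unadjusted p under 0.05 and 3 genes an adjusted p under 0.05 (0.021%). With the replicate term 11 genes were under 0.05 (0.077%).

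*clec-47*, a C-type lectin gene on chromosome V (15175759 to 15176324), was among the 3. It was nearly absent from the parent, at 0.30 and 0.21 TPM, and stood at 6.75 and 3.01 TPM in *sams-1(ww51)*. In *mthf-1(ww50)* it reached 247.07 and 244.38 TPM, in *metr-1(ww52)* 124.33 and 72.68 TPM and in *mtrr-1(ww56)* 61.56 and 97.57 TPM. All 6 of those libraries lay above both *sams-1(ww51)* libraries, by −4.46 ± 0.31 in log2 units for *sams-1(ww51)* minus the others (adjusted p = 0.0114). With the 1 TPM filter set over all 10 libraries, *clec-47* was the 1 gene under 0.05 (adjusted p = 0.0265). The other 2 genes were the overlapping noncoding pair R02D5.12 and R02D5.20, listed at 0 in all 8 libraries other than *sams-1(ww51)*. With a mean of 0.533 TPM over the 10 libraries, they had entered the test through the *sams-1(ww51)* libraries alone, so no p is given for them. Whether a local difference in the genome of the strain had a part in these values was not tested.

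The next genes by p did not reach an adjusted p under 0.05 without the replicate term. The noncoding RNA *linc-59*, whose 503 bases lie inside F57G8.14 on the same strand, was at 29.47 and 10.53 TPM in *sams-1(ww51)*, at 0 in the parent and at most 1.07 TPM in any other mutant library (log2 difference 3.96 ± 0.37). It passed the filter through the *sams-1(ww51)* libraries alone, so no p is given for it. *gta-1*, the gene for 4-aminobutyrate aminotransferase, was at 683.64 and 510.51 TPM in *sams-1(ww51)* and at 186.96 to 420.60 TPM in the other mutants (log2 difference 1.17 ± 0.13, adjusted p = 0.145, with the replicate term 0.0223). F11D11.3 was at 3.84 and 9.85 TPM and at most 0.87 TPM in any other mutant library. F46C5.1 was the reverse case, at 9.21 and 10.77 TPM in *sams-1(ww51)*, the level of the parent (11.95 and 8.67 TPM), and at 1.2 to 3.07 TPM in the other mutants. The noncoding RNA F28A10.11 stood at 2.41 and 2.82 TPM, below the parent, while the other mutants lay at 7.16 to 10.47 TPM, above it.

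**Figure D5:**
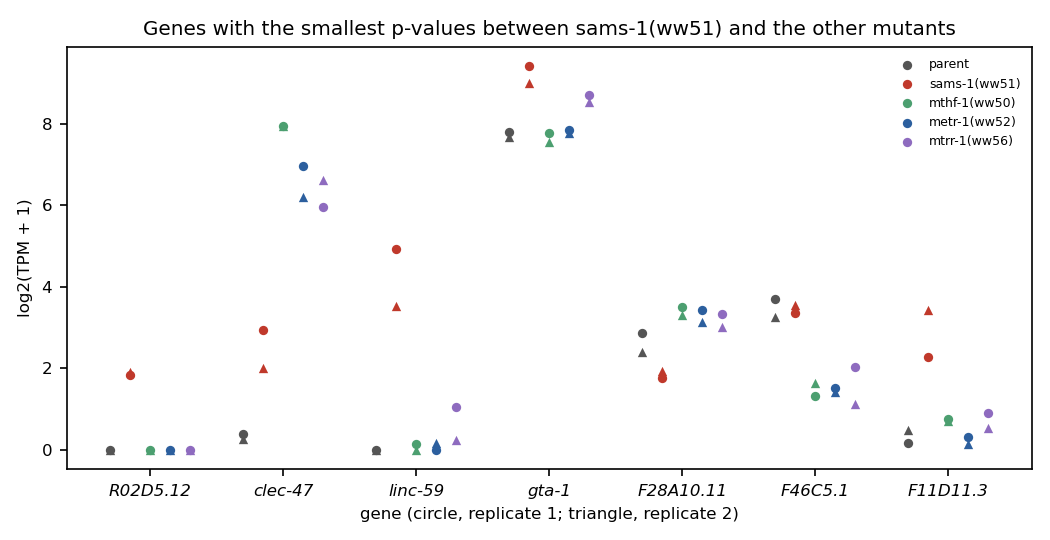
Log2(TPM + 1) of 7 genes in all 10 libraries, coloured by strain, with circles for replicate 1 and triangles for replicate 2. The red *sams-1(ww51)* marks lie below the other mutants for *clec-47* and F28A10.11, above them for R02D5.12, *linc-59*, *gta-1* and F11D11.3, and level with the parent for F46C5.1.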

How the data were processed

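RNA-seq of whole *C. elegans* gave 10 libraries, 2 for each of 5 strains. Per the methods, the authors aligned paired-end reads of 100 bp to WormBase WS271 using bowtie2 and estimated abundances with RSEM. They deposited 1 table of TPM values to 2 decimals, in which every column matched a sample by name. Sequencing depth is lost in TPM, no count test was run, and a strand setting is not given in the sources used here.

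For genes averaging 1 TPM or more over the 4 libraries of *sams-1(ww51)* and the parent, log2(TPM + 1) of all 10 libraries was fitted with limma 3.58.1 in R 4.3.3 (1 mean per strain, moderated variances with a trend on abundance). Tests were two-sided with Benjamini-Hochberg adjustment over 14282 genes. Replicates are numbered 1 and 2 in every strain. Differences between replicates correlated across genes in all pairs of strains, from 0.160 between the parent and *sams-1(ww51)* to 0.737, each over 0.1, so the numbers were taken to pair the libraries, although no label says that they were grown together. Values with the replicate number as a block stand beside those without it. The fitting was tested on simulated data.

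Named genes are the 17 called without the block, the 12 largest rises and 12 largest falls among genes called with it (libraries not overlapping, mean of 5 TPM or more in the higher strain), the 8 with the smallest adjusted p against the other mutants, and members of 26 gene lists. The members and lists were chosen with earlier results of these data known, and the *col-* family and the genes between *cld-1* and *dod-24* after their values were seen. Of 329 listed genes 326 were matched. Coordinates and overlaps are from the Ensembl annotation of WBcel235, which was not compared base by base with WS271, and 137 of the 401 genes called with the block overlap exons of another gene. Alternatives were a pseudocount of 0.1, filters, scalings, no trend, a test against a 1.5-fold change, a threshold of 0.05, the 4 libraries alone and each library left out. Figures were drawn with Python 3.11.15 and matplotlib 3.10.9.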

Additional observations from a re-analysis of the deposited data

Results flagged for a closer look

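The lectin gene *clec-47* was flagged for its difference between *sams-1(ww51)* and the mean of the other 3 mutants, −4.46 on the log2 scale. Its adjusted p from limma was under 0.05 (0.0114, with the replicate block 0.0223). It did not reach the 0.01 needed for a call. All 8 mutant libraries were above both parent libraries, so the mutants differed in the size of the rise. The noncoding RNA F28A10.11 lay below both parent libraries in *sams-1(ww51)* and above both in all 6 libraries of the other mutants, a log2 difference of −1.45 that did not pass the test (adjusted p = 0.154, with the replicate block 0.0443). No sample could be judged as standing apart from its group, since each group holds 2 libraries.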

How the results depend on the processing

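With 2 libraries per strain, the spread was borrowed from all 5 strains, and the counts of called genes moved with how it was estimated. Without the replicate block, 13 higher and 4 lower genes became 62 and 7 at an adjusted p under 0.05, 7 and 1 with a filter at a mean of 5 TPM or with quantile normalization, 4 and 1 in the test against a 1.5-fold change and 0 and 0 in the fit on the 4 libraries alone. The 4 lower genes became 0 with a pseudocount of 0.1, 2 with no filter and 2 with a filter over 10 libraries. The replicate block, by which same-numbered libraries are paired, gave 366 and 35. Leaving out 1 library gave from 3 to 27 higher and from 0 to 20 lower genes without the block, and from 2 to 357 higher and from 0 to 53 lower with it. Counted with the block, the genes became 1180 and 276 at an adjusted p under 0.05, 215 higher with quantile normalization, and 0 and 0 in the fit on the 4 libraries alone. Of the 151 named genes, 84 were called with the block against 17 without it, none of the 17 was lost, and the calls it changed are given beside the results. Of the 17, 10 remained called with the pseudocount of 0.1, 12 with median-ratio scaling, 8 with quantile normalization and 3 to 8 with 1 library left out. The causes of these changes were not tested.

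In the comparison with the other mutants, 0 higher and 0 lower genes became 2 and 1 at an adjusted p under 0.05, 8 and 3 with the block at that threshold, 4 and 4 with no filter and 2 higher with no mean-variance trend. Leaving out 1 library gave 0 to 17 higher and 0 to 2 lower.

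Median-ratio scaling moved the median of all genes from 0.043 to −0.0071 and quantile normalization to −0.051. Of the named genes, 129 kept their direction under every alternative tried, and none of the 22 others was called with or without the block. Median-ratio scaling gave negative log2 fold changes for *cth-1* (−0.026), *dod-19* (−0.019), *mce-1* (−0.022), *mmcm-1* (−0.049), *mrp-5* (−0.037) and *pccb-1* (−0.0003). Quantile normalization gave −0.032 for *cbs-2*, −0.0085 for *cth-1*, −0.012 for *mce-1*, −0.044 for *mmcm-1*, −0.025 for *mrp-5* and 0.14 for *dpy-5*. The median of the canonical propionate list became −0.022 and −0.012 under these scalings, and that of the methionine and B12 entry list −0.0085 with quantile normalization. Leaving out 1 library moved these medians between −0.024 and 0.087 and between −0.039 and 0.18. The same step moved C32H11.11 between −0.76 and 0.51, C32H11.7 between −0.13 and 0.79, C32H11.8 between −0.66 and 0.93, *srlf-4* between −0.55 and 0.84 and *srlf-5* between −0.064 and 0.97. It moved F46C5.1 between −0.24 and 0.18, *cbs-2* between −0.091 and 0.26, *cth-1* between −0.57 and 0.63, *cth-2* between −0.039 and 0.16, *mrp-5* between −0.14 and 0.18 and *dod-19* between −0.047 and 0.12. For the collagens *dpy-13*, *dpy-4* and *dpy-5* the ranges were −0.38 to 0.67, −0.34 to 0.64 and −0.60 to 0.53. For *mce-1*, *mmcm-1*, *pcca-1* and *pccb-1* they were −0.022 to 0.087, −0.024 to 0.036, −0.23 to 0.016 and −0.13 to 0.24. For *nhr-10*, *sams-5*, *sbp-1* and *vit-2* they were −0.25 to 0.0030, −0.16 to 0.66, −0.34 to 0.096 and −0.91 to 1.32. TPM keep no depth and the methods give only an approximate minimum of reads per sample. What counting error adds for genes near 1 TPM could therefore not be given.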

Other observations

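A few gene families outside the lists were looked at after their values were seen, so their counts are descriptions. Among 157 tested *nhr-* genes, the nuclear hormone receptors, 37 had both *sams-1(ww51)* libraries above both parent libraries with a fold over 1.5 and 0 had both below, beside 12.8% and 5.47% of all genes, and 4 were called higher with the replicate block, a share near the 2.56% of all genes. Beside *nhr-68* and *nhr-114* these were *nhr-234*, at 3.78 and 1.52 TPM in the parent and 52.93 and 22.02 TPM in the mutant (log2 fold change 3.34 ± 0.82), and *nhr-57*, at 2.53 and 2.64 TPM and at 7.38 and 8.64 TPM (log2 fold change 1.33 ± 0.23). Of 31 tested *his-* genes, which encode histones, 17 were apart and higher and 0 lower, beside the same shares of all genes, with a median log2 fold change of 0.71. *his-17* stood at 9.41 and 3.46 TPM in the parent and 34.38 and 34.94 TPM in the mutant (log2 fold change 2.39, with the replicate block adjusted p = 0.00767). Histone genes are near copies of each other and most of their transcripts lack a poly(A) tail, so single values are uncertain.

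A few other called genes were chosen after their values were seen. The cathepsin B gene *cpr-4* was at 138.24 and 184.18 TPM in the parent and 1939 and 1112 TPM in the mutant (log2 fold change 3.19, adjusted p = 0.0721, with the replicate block 0.00691). The aspartic protease gene *asp-13* was at 27.15 and 17.42 TPM and at 172.65 and 184.84 TPM (log2 fold change 2.98, adjusted p = 0.0200, with the replicate block 0.00536), with mutant libraries that differed by little. The noncoding RNA *tts-1* was at 11.24 and 27.72 TPM and at 201.19 and 150.96 TPM (log2 fold change 3.22, adjusted p = 0.0230, with the replicate block 0.00618). On the lower side, the lipid-binding protein gene *lbp-5* was at 157.57 and 231.34 TPM and at 71.89 and 99.11 TPM (log2 fold change −1.17, with the replicate block adjusted p = 0.00332), and the saposin-like gene *spp-4* at 167.83 and 165.03 TPM and at 77.46 and 87.75 TPM (log2 fold change −1.0, with the replicate block adjusted p = 0.00888).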
